A study of Mus musculus with 6 samples.

Results

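The dermal papilla is the cluster of mesenchymal cells at the base of the hair follicle, and 8 genes used to mark it were followed here in mouse back skin: Corin, Alpl, Inhba, Vcan, Ncam1, Crabp1, Sox2 and Prom1. Every probe whose accession leads to 1 of these genes was taken. Of the 8 genes, 7 had a probe, with 10 probes in all, and all 7 passed the filter on dim probes and stand among 22039 genes tested. Vcan, which encodes the proteoglycan versican, was matched to no probe through the accessions and is named only, while 18156 probes carry no gene name here.

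Back skin was taken 2, 4 and 7 days after C57/BL mice received cyclosporin A or, as the control, ethanol, and was read on 6 dual-colour arrays with 2 arrays for each day. Each array held 1 sample of either treatment, which gives 12 samples, with Cy5 always on cyclosporin A skin and Cy3 always on ethanol skin. Because the dyes were never swapped, treatment and dye cannot be told apart for any 1 gene. Days 2 and 4 lay on 1 slide and day 7 on another, so an effect of the slide and day 7 cannot be told apart. The labels give no age, sex or dose, and nothing in them says that samples came from separate animals, so p-values measure only the spread between these samples, which may be technical.

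Cyclosporin A binds cyclophilin, and the complex blocks calcineurin, the phosphatase that sends NFAT transcription factors into the nucleus. The drug is known for excess hair growth in patients and for starting follicle growth in mice. In the hair cycle the papilla persists through the resting phase, and its signals start and sustain growth of the epithelial matrix cells above it, which build the shaft and its sheaths. Papilla markers differ in kind: Corin is a membrane serine protease that activates atrial natriuretic peptide and acts on coat colour from the papilla, Alpl is the tissue-nonspecific alkaline phosphatase whose activity is a classic stain of the papilla, and Inhba is the beta A subunit of activin A. Ncam1 is a neural cell adhesion molecule, Crabp1 binds retinoic acid in the cytoplasm, Sox2 is a transcription factor found in the papillae of some hair types, and Prom1 encodes the membrane glycoprotein CD133. All of them are also expressed elsewhere, Sox2 for example in Merkel cells and Ncam1 in nerve.

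The median signal per array was 134.5 to 187 in the cyclosporin A channel and 203 to 277 in the ethanol channel, and no spot was saturated. The share of probes well above background was 59.9% to 68.8% for cyclosporin A skin and 43.5% to 56.5% for ethanol skin. The log2 ratios of the 2 arrays of a day correlated over probes with r of 0.025 at day 2, 0.424 at day 4 and 0.575 at day 7 (a description across genes, which are not replicates). With so few arrays, every value is imprecise.

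At day 7, 3 of the 7 measured markers were higher in cyclosporin A skin. Alpl was 2.54-fold higher, Corin 2.27-fold over an ethanol signal not well above background, and Inhba 2.01-fold. Prom1, Ncam1, Sox2 and Crabp1 did not pass the test, and no marker was lower. A call here is a Benjamini-Hochberg adjusted p under 0.05 in limma, over all genes tested. At day 7 the calls made up 2.38% of all genes on the higher side and 0.658% on the lower side. Corin, Prom1 and Sox2, 3 of the 7, passed the filter on dim probes through cyclosporin A skin alone, since their ethanol signal was well above background on no array, so counts and medians over the 7 markers (median log2 ratio 0.48, against 0.03 for all genes) are descriptions only. The 3 calls depended on both day 7 arrays, with 0 of 7 without either of them, and where both channels had to be well above background on all arrays Corin and Alpl had no value and 1 of 3 markers was called.

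Corin, the protease, was dim in every sample. Its normalized intensity at day 2 was 137 and 132 in cyclosporin A skin, against 106 and 112 in ethanol skin. At day 4 it was 157 and 142 in cyclosporin A skin, against 133 and 108 in ethanol skin. At day 7 it reached 287 and 270 in cyclosporin A skin, against 129 and 116 in ethanol skin. The cyclosporin A samples lay above both ethanol samples on every day, and the 2 of day 7 lay above all others. The probe was well above background in all 6 cyclosporin A samples and in 0 of the 6 ethanol samples, so each fold is uncertain. Signals not well above background reached higher in the ethanol channel. Their 95th percentile per array was 125 to 190 there, against 101 to 117 in the cyclosporin A channel. The 6 and 0 thus do not show that Corin was absent from ethanol skin. Corin's ethanol signal stood above the lowest signal called well above background on every array, so using that signal as a floor changed no ratio. The log2 ratio was 0.30 ± 0.11 at day 2 (SE, n = 2 arrays, limma adjusted p = 0.495), 1.23-fold. It was 0.31 ± 0.11 at day 4 (limma adjusted p = 0.285), 1.24-fold, and 1.18 ± 0.11 at day 7 (limma adjusted p = 0.00643). Of the 3 days only the last passed the test. In bulk skin, a change in the number of papilla cells and a change in RNA per cell cannot be told apart.

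Alpl, the phosphatase, had log2 ratios above 1 on each of the 3 days. Its intensity at day 2 was 751 and 426 in cyclosporin A skin, against 204 and 230 in ethanol skin. The day 4 values were 598 and 616 in cyclosporin A skin, against 353 and 254 in ethanol skin. The day 7 values were 389 and 615 in cyclosporin A skin, against 182 and 204 in ethanol skin. The treatments did not overlap on any day: the lowest of the 6 cyclosporin A samples was above the highest of the 6 ethanol samples. The share of all genes that separate in this way was not counted, and the dyes were never swapped. Separations of this kind are therefore descriptions only, here and for the other markers. The probe was well above background in all 6 cyclosporin A samples and in 5 of the 6 ethanol samples. The log2 ratio was 1.39 ± 0.26 at day 2 (SE, n = 2 arrays; limma adjusted p = 0.473), 1.02 ± 0.26 at day 4 (limma adjusted p = 0.202) and 1.34 ± 0.26 at day 7 (limma adjusted p = 0.0483). At day 2 only 0.0136% of all genes had a higher ratio than Alpl, yet the 2 arrays of that day gave 1.88 and 0.89. The day 7 call stood close to the threshold: it was kept in 4 of 15 other settings of the analysis, with log2 ratios of 1.09 to 1.82 over them.

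Inhba, the activin subunit, was bright enough to be well above background in all 12 samples. Its intensity at day 2 was 778 and 804 in cyclosporin A skin, against 507 and 549 in ethanol skin. Day 4 gave 742 and 821 in cyclosporin A skin, against 591 and 466 in ethanol skin. Day 7 gave 1072 and 1030 in cyclosporin A skin, against 536 and 508 in ethanol skin. All 6 cyclosporin A samples lay above all 6 ethanol samples, and the day 7 cyclosporin A samples were the 2 highest. As for Alpl, the share of all genes that do so was not counted. The log2 ratio was 0.59 ± 0.14 at day 2 (SE, n = 2 arrays; limma adjusted p = 0.473), 0.57 ± 0.14 at day 4 (limma adjusted p = 0.193) and 1.01 ± 0.14 at day 7 (limma adjusted p = 0.0213).

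**Figure D1:**
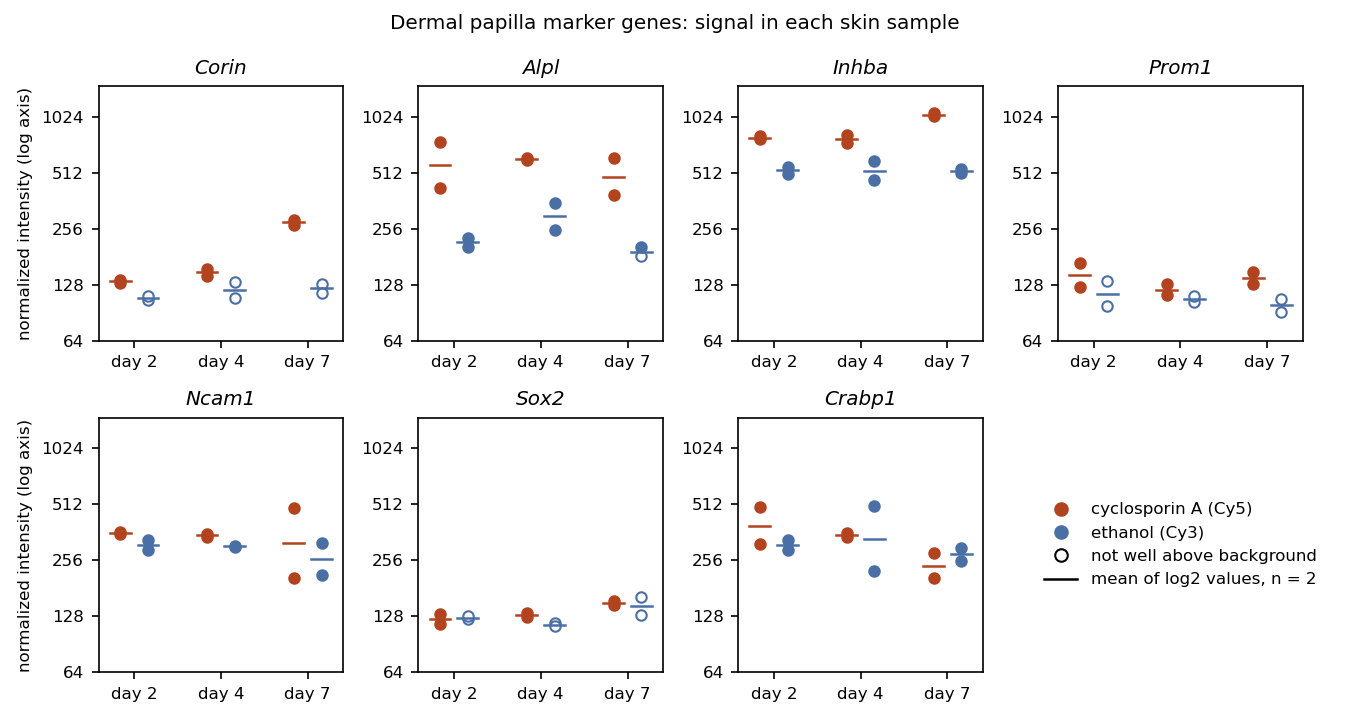
Normalized intensity (log axis) of each measured dermal papilla marker in each skin sample by day, with cyclosporin A on the left of ethanol; circles are single samples, open where the probe was not well above background, and lines are means of the log2 values (n = 2). Alpl and Inhba are higher in cyclosporin A skin on all days without overlap, and the share of all genes without overlap was not counted. Corin reaches 287 and 270 in cyclosporin A skin at day 7, against 129 and 116 in ethanol skin.

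The stretches just upstream of the annotated starts of these 3 genes are shown because their transcripts were the ones that were higher together at day 7. Each runs over the 250 bases before the start, read 5′ to 3′ on the gene's strand, from RefSeq on GRCm38.p6. For Inhba the start used lies inside the annotated span of the gene, so the stretch before its outermost start is not shown. Capitals mark, on either strand, the NFAT core GGAAA and the TCF/LEF core CTTTGA, through which NFAT and Wnt-driven factors bind DNA.
Corin (chr5:72504541-72504790, minus strand): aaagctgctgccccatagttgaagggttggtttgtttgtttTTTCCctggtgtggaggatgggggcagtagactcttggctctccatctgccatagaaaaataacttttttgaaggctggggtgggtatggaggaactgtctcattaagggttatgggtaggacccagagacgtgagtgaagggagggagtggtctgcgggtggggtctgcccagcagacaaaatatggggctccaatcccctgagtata
Alpl, start 1 (chr4:137796385-137796634, minus strand): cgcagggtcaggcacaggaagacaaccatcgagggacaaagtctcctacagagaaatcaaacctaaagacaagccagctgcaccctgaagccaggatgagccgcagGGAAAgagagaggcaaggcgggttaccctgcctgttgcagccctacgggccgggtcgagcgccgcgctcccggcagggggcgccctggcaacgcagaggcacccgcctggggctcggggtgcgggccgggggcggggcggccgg
Alpl, start 2 (chr4:137766476-137766725, minus strand): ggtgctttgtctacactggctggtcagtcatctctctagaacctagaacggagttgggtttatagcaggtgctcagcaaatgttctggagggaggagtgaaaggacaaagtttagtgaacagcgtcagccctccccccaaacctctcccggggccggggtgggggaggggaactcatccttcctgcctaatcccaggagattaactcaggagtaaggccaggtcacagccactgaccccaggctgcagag
Inhba (chr13:16011601-16011850, plus strand): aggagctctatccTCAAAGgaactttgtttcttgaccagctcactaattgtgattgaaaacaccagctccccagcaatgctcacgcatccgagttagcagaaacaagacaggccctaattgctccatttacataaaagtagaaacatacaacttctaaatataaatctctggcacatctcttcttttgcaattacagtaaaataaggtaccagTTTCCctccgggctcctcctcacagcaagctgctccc
The Corin stretch held 1 NFAT core, the first Alpl stretch 1, the second Alpl stretch 0, and the Inhba stretch 1 NFAT core and 1 TCF/LEF core. The GLI site GACCACCCA, searched in the same way, was in none of these stretches. Of 32851 mouse stretches of the same length, 55.6% held the NFAT core, 13.8% the TCF/LEF core and 0.225% the GLI site, so 1 NFAT core in a stretch is common. The share of G and C differed between them: 68.4% and 56% for Alpl, 51.2% for Corin and 43.2% for Inhba, against a median of 52.4% over all stretches. A match of letters is a description and says nothing of binding.

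Prom1, the CD133 gene, was dim, and its brighter probe was well above background in all 6 cyclosporin A samples and in 0 of the 6 ethanol samples. Its intensity at day 2 was 168 and 124 in cyclosporin A skin, against 134 and 98.3 in ethanol skin. The day 4 samples had 129 and 112 in cyclosporin A skin, against 104 and 111 in ethanol skin. The day 7 samples had 129 and 149 in cyclosporin A skin, against 91.5 and 108 in ethanol skin. The treatments overlapped at day 2, nearly touched at day 4 and did not overlap at day 7. The log2 ratio was 0.33 ± 0.12 at day 2, 0.17 ± 0.12 at day 4 (-0.14 when arrays were centred on their median) and 0.48 ± 0.12 at day 7 (SE, n = 2 arrays; limma adjusted p = 0.0909), and it passed the test on no day. The second Prom1 probe did not pass the filter on dim probes, and its mean log2 ratios were -0.09 at day 2, -0.0032 at day 4 and -0.0059 at day 7, so the 2 probes did not give the same picture.

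Ncam1, the adhesion molecule, was measured by 3 probes. For the brightest, the intensity at day 2 was 364 and 353 in cyclosporin A skin, against 328 and 289 in ethanol skin. On day 4 it was 356 and 342 in cyclosporin A skin, against 307 and 303 in ethanol skin. On day 7 it was 207 and 487 in cyclosporin A skin, against 214 and 318 in ethanol skin. The treatments overlapped at day 7 and not at days 2 and 4. The 2 day 7 arrays pointed in opposite directions, at -0.05 and 0.62 on the log2 scale, with a mean of 0.28 ± 0.17 (SE, n = 2 arrays; limma adjusted p = 0.361). The other probes were not well above background in any ethanol sample and had day 7 log2 ratios of -0.07 and -0.04. The first of these was spotted 10 times on each array, and the SD of its log2 ratios over those spots was 0.165 to 0.305.

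Sox2, the transcription factor, was dim. It was well above background in all 6 cyclosporin A samples and in no ethanol sample. At day 7 an ethanol value of 162 was not well above background, whereas a cyclosporin A value of 148 was. Its intensity at day 2 was 117 and 132 in cyclosporin A skin, against 124 and 128 in ethanol skin. Values of day 4 were 133 and 126 in cyclosporin A skin, against 117 and 114 in ethanol skin. Values of day 7 were 148 and 155 in cyclosporin A skin, against 162 and 131 in ethanol skin. The treatments overlapped at days 2 and 7 and not at day 4. The day 7 log2 ratio was 0.06 ± 0.13 (SE, n = 2 arrays; limma adjusted p = 0.829), and it lay below 0 when arrays were centred on their median in place of loess (-0.10), as did that of day 4 (-0.07, against 0.17 with loess).

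Crabp1, the retinoic acid binding protein, was well above background in all 12 samples, and its ratio had the widest range over arrays of the 7 markers, -0.48 to 0.76. The intensity at day 2 was 493 and 315 in cyclosporin A skin, against 292 and 331 in ethanol skin. It was 361 and 341 in cyclosporin A skin at day 4, against 502 and 224 in ethanol skin. It was 206 and 280 in cyclosporin A skin at day 7, against 255 and 297 in ethanol skin. The ranges of the treatments overlapped on each day. The ratio was above 0 on 2 of 6 arrays, and the log2 ratio at day 7 was -0.20 ± 0.29 (SE, n = 2 arrays; limma adjusted p = 0.711).

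**Figure D2:**
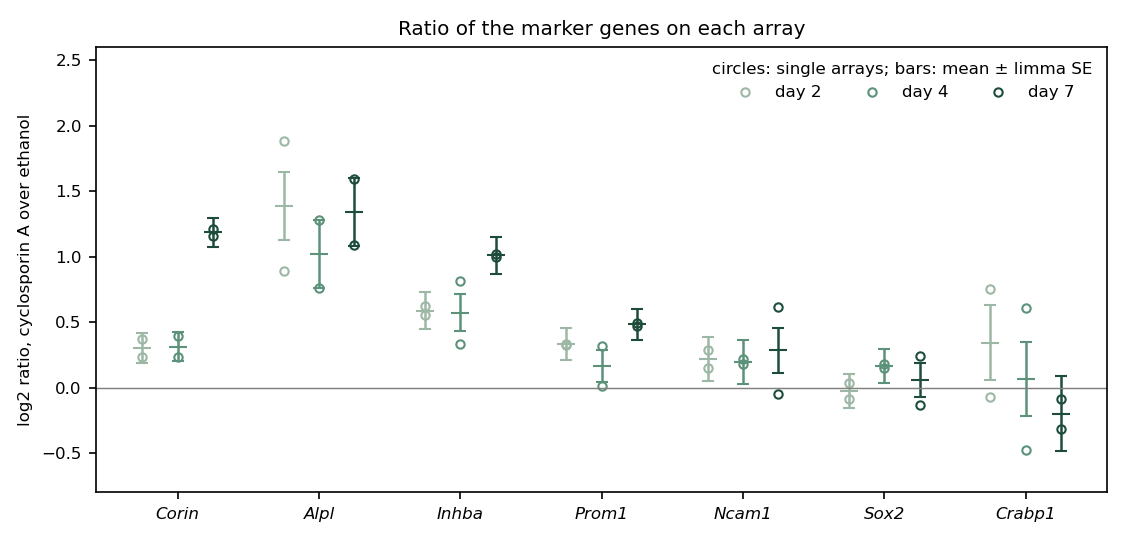
Log2 ratio of cyclosporin A over ethanol for each measured marker, by day; circles are single arrays and bars are the mean ± limma standard error (n = 2 arrays per day). Corin stands near 0.3 on days 2 and 4 and at 1.18 at day 7, whereas Alpl is at 1.39, 1.02 and 1.34 on days 2, 4 and 7.

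Before day 7 no marker passed the test. At day 2, 0 of the 7 markers were called by limma, with 4 at an unadjusted p under 0.05 (Alpl, Inhba, Prom1 and Corin, all higher). Of all genes at day 2, 0% were called higher, and 6.75% were higher at an unadjusted p under 0.05. At day 4, 0 of 7 were called, with 3 at an unadjusted p under 0.05 (Alpl, Inhba and Corin, all higher). Of all genes at day 4, 0.00454% were called higher, and 10.5% were higher at an unadjusted p under 0.05. With arrays centred on their median, 2 of the 7 markers were called at day 2 and 2 at day 4, while the median log2 ratio of all genes then stood at 0.40 at day 2 and 0.28 at day 4. In that setting 7945 of 22039 genes were called higher at day 2 and 5215 at day 4, so these marker calls are descriptions only. Alpl, Corin, Inhba and Prom1 had ratios above 0 on all 6 arrays, Ncam1 on 5 and Sox2 on 4. Of all genes, 57.7% had a mean ratio above 0 at day 2, 57.1% at day 4 and 54.1% at day 7. The share of genes above 0 on all 6 arrays was not counted, so these marker counts are descriptions only.

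Averaged over the 3 days, a test added after the data were seen, 4 markers were higher: Alpl, Inhba, Corin and Prom1. The average log2 ratio was 1.25 ± 0.15 for Alpl (limma adjusted p = 0.011), 0.72 ± 0.08 for Inhba (adjusted p = 0.00965), 0.60 ± 0.07 for Corin (adjusted p = 0.00911) and 0.33 ± 0.07 for Prom1 (adjusted p = 0.0313). Corin and Prom1 passed the filter through cyclosporin A skin alone, so the count of 4 is a description only. The second Prom1 probe, given above, had mean log2 ratios of -0.09, -0.0032 and -0.0059 on days 2, 4 and 7. Its single arrays lay on both sides of 0 at days 4 and 7. Ncam1 averaged 0.23 ± 0.10 (adjusted p = 0.152). In this test 9.59% of all genes were called higher. Without the second day 4 array, 0 of the 7 markers were called in it.

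The difference in ratio between day 7 and day 2 was then tested itself. For Corin it was 0.88 ± 0.16 on the log2 scale (limma adjusted p = 0.213), for Inhba 0.42 ± 0.20 (adjusted p = 0.832) and for Alpl -0.04 ± 0.37 (adjusted p = 0.994). None of the 7 markers was called by limma, with 1 higher at an unadjusted p under 0.05 (Corin). Of all genes 0.254% were called higher, and 3.86% were higher at an unadjusted p under 0.05. In each channel alone, Corin was higher at day 7 than at day 2 in cyclosporin A skin by 1.05 ± 0.15 (limma adjusted p = 0.0279), beside 0.88% of genes called higher. In ethanol skin the same difference was 0.17 ± 0.15 (limma adjusted p = 0.683), and 0 of the 7 markers were called there, or had an unadjusted p under 0.05. All genes called in ethanol skin made up 0.0318% on the higher side and 0.00454% on the lower side. In cyclosporin A skin 1 of the 7 markers was thus called. The count was 0 in each fit that left out an array, except without the second day 7 array, where it was 2, and it was 0 with the replicate numbers as a block.

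Inhba in cyclosporin A skin differed between day 7 and day 2 by 0.41 ± 0.15 (limma adjusted p = 0.294), and Crabp1 by -0.72 ± 0.25 (limma adjusted p = 0.263). In ethanol skin Inhba differed by -0.01 ± 0.16 (limma adjusted p = 0.983) and Crabp1 by -0.17 ± 0.32 (limma adjusted p = 0.868). Alpl in cyclosporin A skin differed by -0.21 ± 0.31 (limma adjusted p = 0.82), and in ethanol skin by -0.17 ± 0.18 (limma adjusted p = 0.743).

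The patterns of the 3 called markers over the 12 samples were compared with those of 13356 named genes by Pearson's r of log2 intensity, as a description. Samples of 1 array share its hybridization, and days and treatments are pooled. Corin was closest to Rflna, a filamin-binding protein (r = 0.987), the homeobox gene Msx2 (0.973), and Farp1, a guanine nucleotide exchange factor (0.972). Alpl was closest to Sytl4, a vesicle docking protein (0.94), Zcchc12 (0.932) and the cytokine gene Il6 (0.912). Inhba was closest to Zfp286, a zinc finger gene (0.969), Fam216a (0.968) and Tubb3, a neuronal beta tubulin (0.956). Among themselves, Corin and Inhba correlated with r = 0.876, Alpl and Inhba with 0.783, and Corin and Alpl with 0.521.

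Of 32 further genes reported in the papilla, 30 were tested, and at day 7 4 were higher and 1 was lower. The higher ones were Lef1, a Wnt effector (log2 ratio 1.57, array values 1.10 and 2.03), Wif1, a secreted Wnt inhibitor (1.53, array values 0.93 and 2.12), Cntfr, a cytokine receptor subunit (1.32, array values 1.05 and 1.59), and Hhip, a hedgehog-binding inhibitor (1.08, array values 0.79 and 1.38). Lef1 and Hhip are also expressed outside the papilla, and Lef1 is abundant in the hair matrix. Hhip was not well above background in any ethanol sample. Dkk2, a secreted Wnt antagonist, was lower by its log2 ratio of -0.96 (limma adjusted p = 0.0352), a call kept in 7 of 16 other settings and lost with median centring (-0.53, limma adjusted p = 0.0595). The median log2 ratio over the 30 was 0.23, against 0.03 for all genes, with 20 of 30 above 0, beside 54.1% of all genes. Hhip, Rspo2, Hgf, Tbx18, Notum and Edn3 passed the filter on dim probes through cyclosporin A skin alone. Counts and medians over the 30 are therefore descriptions only. Where both channels had to be well above background on all arrays, 19 genes remained, with 1 higher, 1 lower and a median of -0.03. Sox18, a SOX factor of the papilla and of endothelium, was the farthest from 0 among those not called, at 1.06 ± 0.24 (limma adjusted p = 0.0707). Fgf7, a papilla growth factor for the epithelium, had -0.20 ± 0.12 (limma adjusted p = 0.36), and Bmp4 had -0.03 ± 0.11 (limma adjusted p = 0.882). The count of 4 was 8 with median centring, 2 with scale normalization, 1 without either day 4 array and 0 without the second day 7 array.

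**Figure D3:**
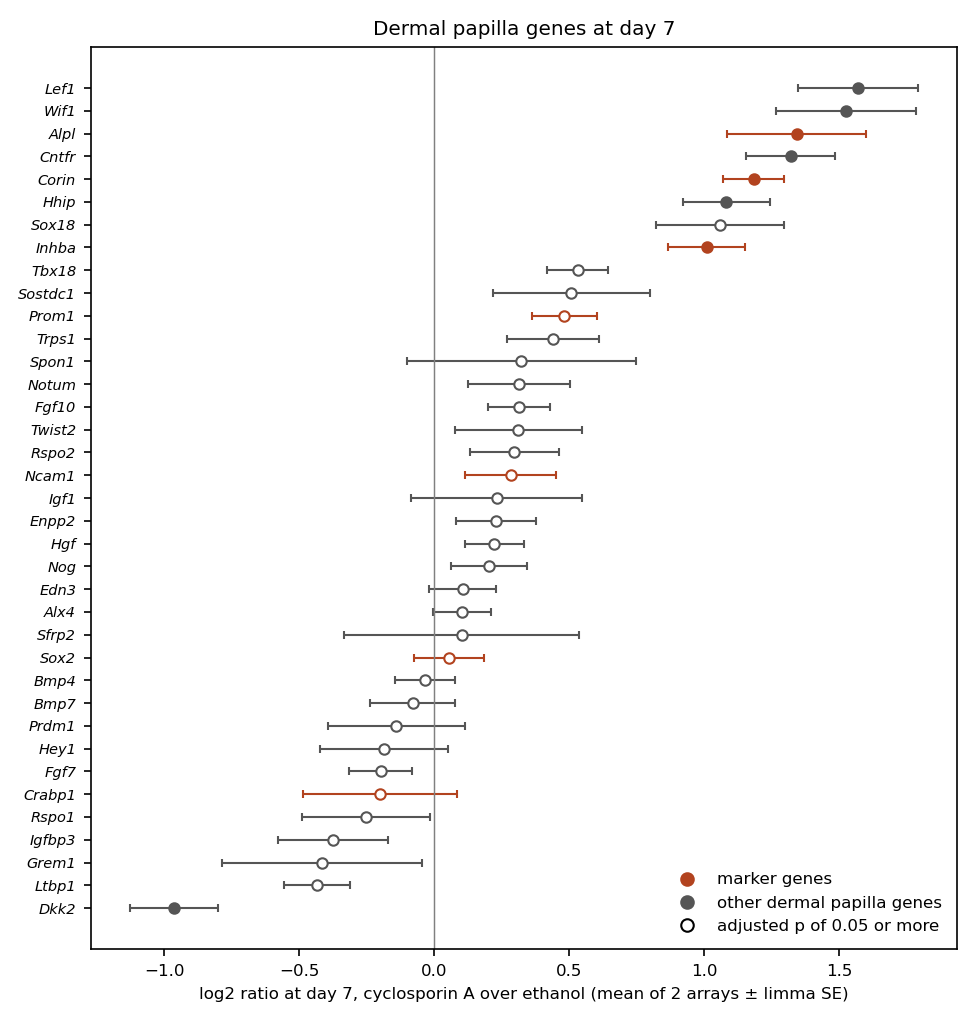
Log2 ratio at day 7, cyclosporin A over ethanol, of the 7 measured markers (red) and 30 further dermal papilla genes (grey), as the mean of 2 arrays ± limma standard error; filled circles have an adjusted p under 0.05. Alpl, Corin and Inhba stand with Lef1, Wif1, Cntfr and Hhip above 1, and Dkk2 is at -0.96.

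The partners of each marker were taken from lists of related genes. In the activin pathway 15 genes were tested, and 2 were higher and 1 lower at day 7. Beside Inhba, the higher one was Smad2, a signal transducer of activin receptors (log2 ratio 0.55 ± 0.11, limma adjusted p = 0.049). The lower one was Fst, follistatin, which binds activin and blocks it (-0.94 ± 0.17, limma adjusted p = 0.0414). Fst gave -0.86 and -1.01 on the 2 day 7 arrays. Neither Smad2 nor Fst kept its call in any of the 6 fits that left out an array, and 0 of the 15 genes were called with processed signals or deposited ratios. The other subunits, Inhbb (0.25 ± 0.29) and Inha (0.24 ± 0.19), and the receptors Acvr1b (0.14 ± 0.12), Acvr2a (-0.23 ± 0.15) and Acvr2b (-0.21 ± 0.11) did not pass the test. Mstn, myostatin, a ligand of the same receptors, was the farthest from 0 of the genes not called (-0.46 ± 0.22, limma adjusted p = 0.277). The median log2 ratio over the 15 genes was 0.07.

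Around Corin, 10 genes of natriuretic peptide signalling and of the pigment switch were tested, and 2 were higher: Corin itself and Mc1r, the melanocortin receptor of melanocytes (log2 ratio 0.98 ± 0.12, limma adjusted p = 0.0162). Mc1r was not well above background in any ethanol sample, and neither of these 2 calls was kept without either day 7 array. Nppa, which encodes the substrate of Corin, had 0.04 ± 0.11 (limma adjusted p = 0.867). Mgrn1, a ubiquitin ligase of the pigment switch, was the farthest from 0 among those not called, at -0.57 ± 0.18 (limma adjusted p = 0.135). Around Alpl, 10 genes of phosphate and pyrophosphate handling were tested, and Alpl was the 1 called. Slc20a1, a phosphate transporter, had 0.52 ± 0.12 (limma adjusted p = 0.0704), and Nt5e, which makes adenosine at the cell surface, was farthest from 0 at -0.56 ± 0.21 (limma adjusted p = 0.18). The medians of these lists were 0.09 around Corin and 0.12 around Alpl.

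Vcan itself was not matched, but 19 genes of the versican and hyaluronan matrix were tested, and 5 were higher: Ncan, neurocan (log2 ratio 1.83), Acan, aggrecan (1.47), Adamts4, a protease that cuts such proteoglycans (1.45), Hapln3, a link protein (1.01), and Tnc, tenascin C (0.98). Has2, a hyaluronan synthase, was farthest from 0 among those not called, at -0.61 ± 0.68 (limma adjusted p = 0.629). The median over the 19 was 0.20. The count of 5 was 8 with median centring, 3 with processed signals, deposited ratios, scale normalization or the replicate block, 1 of 11 where both channels had to be well above background, 3 without the first day 7 array, and 0 without the second day 7 array or either day 4 array. Around Crabp1, 0 of 20 genes of retinoid binding and metabolism were called by limma, with 4 at an unadjusted p under 0.05, all higher. Of all genes at day 7, 22.1% had an unadjusted p under 0.05, 13.7% higher and 8.38% lower. The farthest from 0 was Fabp5, a fatty acid binding protein that also carries retinoic acid (0.56 ± 0.16, limma adjusted p = 0.119), and the median over the 20 was 0.07.

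Around Ncam1, 12 genes of neural adhesion were tested, with 0 higher and 1 lower. The lower one was St8sia4, which adds polysialic acid to Ncam1 (log2 ratio -0.74 ± 0.13, limma adjusted p = 0.0392). This call was kept in 6 of 16 other settings, and with median centring the log2 ratio was -0.26 (limma adjusted p = 0.318). Chl1, a cell adhesion relative, had -0.92 ± 0.26 (limma adjusted p = 0.115). Around Sox2 and Prom1, 15 SOX and prominin genes were tested and 1 was called, Sox13 (1.02 ± 0.11, limma adjusted p = 0.00922). The medians were -0.10 for the adhesion genes and 0.12 for the SOX and prominin genes.

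Markers of other cells were read beside these results. Of 15 hair matrix and growing follicle genes, 13 were higher at day 7, with a median log2 ratio of 1.81. The largest were the inner root sheath keratins Krt71 (6.18), Krt27 (5.72) and Krt25 (5.20), and the smallest called were Hoxc13 (0.93), Dlx3 (1.13) and Msx1 (1.19). Ctsc was the farthest from 0 of those not called (-0.29). Shh and Hoxc13 passed the filter on dim probes through cyclosporin A skin alone, so the count of 13 and the median are descriptions only. The count was 8 with processed signals, 11 with deposited ratios or the replicate block, and 12 with scale normalization. Where both channels had to be well above background on all arrays, it was 3 of 4. The summed intensity of the 15 genes at day 7 was 238767 and 218773 in cyclosporin A skin, against 15896 and 16461 in ethanol skin. At days 2 and 4 it was 10385 to 16472 in cyclosporin A skin, against 9840 to 14274 in ethanol skin, so the 2 day 7 cyclosporin A samples stood apart, as they did for Corin and Inhba. The part of these epithelial genes in the marker results was not tested. At day 4 Krt71 was the 1 called gene of this list (2.04), on a day when 0 of the 7 markers were called.

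Of 8 dermal sheath genes 2 were higher at day 7, Col11a1, a fibrillar collagen chain (log2 ratio 3.24), and Acan, and 1 was lower, Mylk, a kinase of smooth muscle (-1.29), with a median of -0.42 (0.13 with median centring). Cnn1, a smooth muscle calponin, was the farthest from 0 of the others (-0.69). Of 17 fibroblast and collagen genes 0 were called by limma, with 1 at an unadjusted p under 0.05, and the median was -0.02. The fibroblast gene farthest from 0 was Dpt (-0.61 ± 0.27, limma adjusted p = 0.249). Their summed intensity at day 7 was 538908 and 560655 in cyclosporin A skin, against 595759 and 585488 in ethanol skin. With arrays centred on their median, 4 of the 17 fibroblast genes were called higher with a median of 0.65, beside 3 of the 7 markers with a median of 0.41 and a median of 0.17 for all genes. In that setting 4347 of 22039 genes were called higher at day 7, so these counts are descriptions only.

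Of 6 Merkel cell genes 1 was higher at day 7, Krt8 (log2 ratio 0.99), a keratin of simple epithelia, whose partner Krt18 was the next farthest from 0 (0.44), and their summed intensity was 1672 and 1245 in cyclosporin A skin, against 1231 and 1169 in ethanol skin. Of 11 Schwann cell genes 0 were called by limma, with 2 at an unadjusted p under 0.05, both lower, and Mbp, myelin basic protein, was farthest from 0 (-0.52). Of 11 endothelial and pericyte genes 0 were called by limma, with 3 at an unadjusted p under 0.05, and Cldn5, a tight junction gene, was farthest from 0 (-0.48). Of 9 sebaceous genes Fasn was higher (1.25) and Awat2 lower (-1.07), and Elovl3 was the farthest from 0 of the others (0.77), while with median centring 4 were higher and 0 lower. Of 18 skeletal muscle genes 0 were higher and 3 were lower, Ttn (-1.41), Des (-0.88) and Myl1 (-0.85), with Actn3 the farthest from 0 of the others (-1.10). With median centring 3 muscle genes were higher and 2 lower, with a median of 0.12 in place of -0.31 and Myl1 at 0.09. The count of 3 lower was 0 with processed signals, deposited ratios or without either day 7 array, and 1 without either day 4 array or with the replicate block. Their summed intensity at day 7 was 642327 and 458298 in cyclosporin A skin, against 717623 and 754881 in ethanol skin.

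The 3 calls at day 7 were read under up to 16 other settings of the analysis. These settings are not separate checks. Leaving out 1 or the other day 2 array gave the same day 7 fit, and so did either day 4 array. Processed signals and deposited ratios gave the same ratios for the 3 genes, and keeping outlier spots left them unchanged. Corin kept its call in 13 of 15, at log2 ratios of 1.02 to 3.35, and the highest value came with the scanner software's processed signals. Inhba kept its call in 12 of 16, at 0.93 to 1.37, and lost it with the processed signals (limma adjusted p = 0.0631), with the deposited ratios (adjusted p = 0.0546) and without either day 7 array. Alpl kept its call in 4 of 15. With the replicate numbers as a block, Corin and Inhba kept their calls and Alpl lost it (limma adjusted p = 0.0948).

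**Figure D4:**
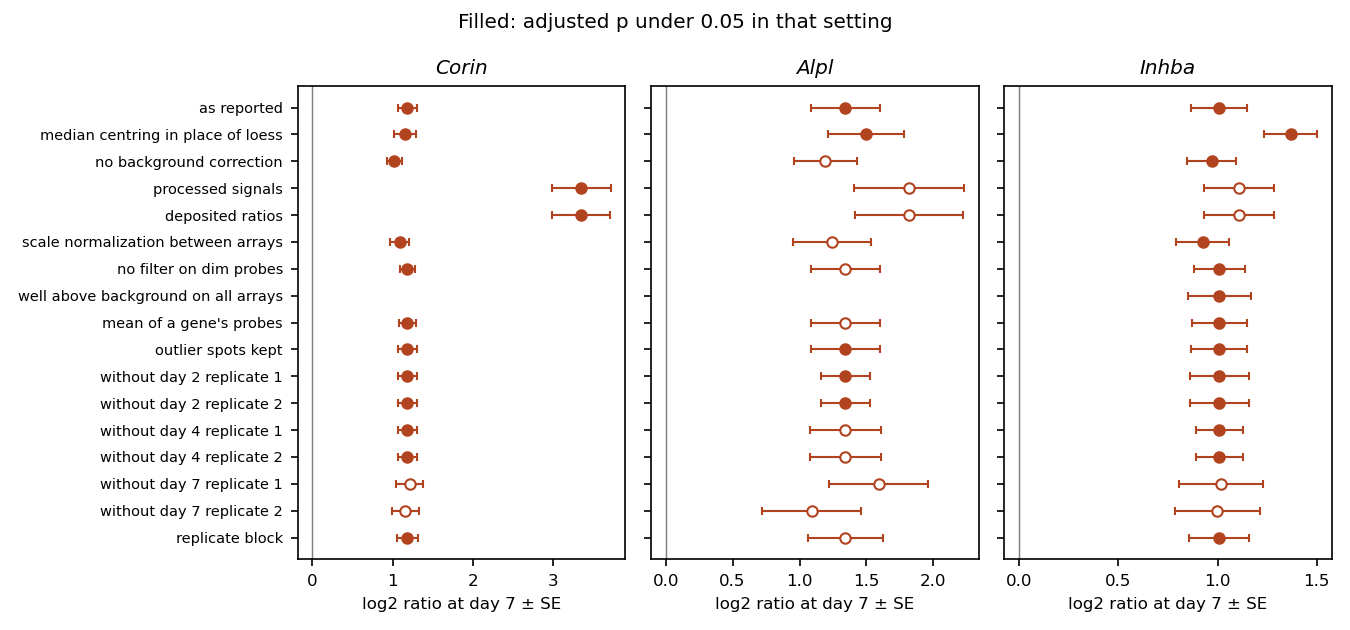
Log2 ratio at day 7 (± limma standard error) of Corin, Alpl and Inhba under each setting of the analysis, one row per setting; filled circles have an adjusted p under 0.05. All values lie above 0 for the 3 genes; Corin and Alpl have no value where probes had to be well above background on all arrays.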

How the data were processed

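Skin RNA of 12 samples was hybridised in pairs to 6 Agilent arrays. The deposited scanner files hold an intensity per spot and channel. The submitters' processing notes name Agilent Feature Extraction 9.1 as the software, and per the file headers it subtracted background and normalized dyes in the processed signals. Log10 ratios of Cy5 over Cy3 in the deposited value table were checked against those in the scanner files (largest difference 0). A genome build is not given in the sources used here.

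From the deposited intensity, median signals of 45018 spots (1639 controls left out) were corrected by normexp (offset 50) and loess-normalized within arrays with limma 3.58.1 under R 4.3.3; the data.table package was of version 1.17.8. Outlier spots, 15 to 126 per array, were dropped, and spots of a probe were averaged. Of 41174 probes, 27932 were kept, a probe passing if some day had it well above background on its 2 arrays in 1 of the channels. Probes were named by accession through a RefSeq table (GRCm38.p6): 22951 by accession, 10 by symbol, 57 by synonym, and 18156 not at all. The brightest probe stood for each of 22039 genes, 158 of which lacked a value on some array. One mean per day was fitted over the 6 arrays (3 residual and 3.75 prior degrees of freedom), tested with moderated statistics and adjusted by Benjamini-Hochberg over all genes. Single-channel log2 intensities were made comparable across arrays by Aquantile, and intensities in the text are on that scale. The fit was tested on simulated data. Figures were drawn with matplotlib 3.10.9.

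The members and all gene lists were chosen with earlier results of these data known. Of each list the text names every gene called at day 7 if 6 or fewer, otherwise the 3 largest and 3 smallest, and the uncalled gene farthest from 0; for each called marker it also names the 3 genes with the closest pattern. Other listed genes named (Fgf7, Bmp4, Inhbb, Inha, Acvr1b, Acvr2a, Acvr2b, Nppa and Slc20a1) were chosen for their roles after their values were seen. Alternatives covered background correction, normalization, the signal used, the filter on dim probes, the probe rule, outlier spots, each array left out, a replicate block and 1 slide alone. The titles number replicates 1 and 2 while each description reads replicate 1 of 2; the titles were used.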

Additional observations from a re-analysis of the deposited data

Results flagged for a closer look

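The ratio of cyclosporin A over ethanol differed between day 7 and day 2 by its own limma test for 5 genes named beside the markers. The log2 difference, day 7 minus day 2, was 3.008 for Col11a1, 2.213 for Msx2, 5.906 for Krt71, 5.725 for Krt27 and 4.955 for Krt25. None of the 7 markers met this test; Corin came closest at 0.88 (limma adjusted p = 0.213).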

How the results depend on the processing

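Of 338 marker ratios recomputed under the alternatives, 306 kept their direction and their side of the threshold, 17 at day 7 lost the call, 4 gained it (2 at day 2 and 2 at day 4) and 11 changed sign. Several alternatives gave the same value for a marker, so 306 is not a count of separate checks. Ratios not called in the reported fit count among the 306 when they stayed uncalled with the same sign. All 17 lost calls fell on Corin, Alpl and Inhba, so 306 does not measure how stable the 3 calls were. Median centring gave 2 called markers at day 2 and 2 at day 4, in place of 0, beside 7945 and 5215 of 22039 genes called higher. It turned Sox2 to -0.0703 at day 4 and -0.10 at day 7, and Prom1 to -0.14 at day 4. It put the median log2 ratio of all genes at 0.17 at day 7, in place of 0.03, and gave 4347 higher and 560 lower calls over all genes (88.6% higher), in place of 525 and 145 (78.4% higher). Of the 3 calls at day 7, 1 remained in count with processed signals, 1 with the deposited ratios and 1 of 3 tested under the strict filter, which asks for every channel of every array to be well above background; leaving out an array gave 0 to 3. For cyclosporin A skin, day 7 against day 2, the count of 1 was 0 under the strict filter and 0 with the replicate block, and 0 to 2 without an array. Processed signals and deposited ratios turned Sox2 at day 2 to 0.60, and the mean of its probes turned Ncam1 at day 4 to -0.0451. Leaving out an array gave -0.0504 to 0.62 for Ncam1 at day 7, -0.0687 to 0.76 for Crabp1 at day 2, -0.48 to 0.61 for Crabp1 at day 4, -0.0842 to 0.0372 for Sox2 at day 2 and -0.13 to 0.24 for Sox2 at day 7. The cause of these shifts was not tested.

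With the replicate block 2 markers were called at day 7. Deviations of same-numbered arrays correlated with r of 0.0347 (days 2 and 4), -0.27 (days 2 and 7) and -0.0236 (days 4 and 7). These values cannot show whether the numbers pair samples. The block changed no other count of called markers than those given. Where an array is left out, the lone array of its day is assumed to vary like the others. Signals near background limit Corin, Prom1 and Sox2, and 2 arrays per day limit all values.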
